A study of Mus musculus with 4 samples.

Results

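This account covers 6 mouse genes for a pericellular protease system of epithelial cells, the membrane serine proteases St14, Prss8, Tmprss13 and Tmprss2 and the Kunitz inhibitors Spint1 and Spint2. They were chosen by symbol, with their levels with and without dTAG-13 in view, and they are 6 of the 24831 genes listed in the tables. All 6 had enough counts to be among the 13602 genes tested. The data are RNA sequencing counts from somitic gastruloids, aggregates of mouse embryonic stem cells that elongate in culture and form presomitic tissue and somites. Every library came from E14 triple reporter cells whose endogenous Zeb2 gene is tagged with HA and the FKBP12F36V degron, so the control cells carry the tag as well. Aggregates of 300 cells received 3 μM CHIR99021, which activates WNT signalling, at 48 h and were placed in 10% Matrigel at 96 h. The dTAG13 group also received 100 nM dTAG-13, a small molecule that leads to degradation of the tagged ZEB2 protein, at 72 h and again at 96 h. The control group is titled untreated, and the protocol gives DMSO as the control. Each group had 2 libraries, which carry the numbers 1 and 2 in both groups. The labels name no separate clones or cultures, so the spread between libraries may be technical.

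St14 encodes matriptase, a type II transmembrane serine protease at the basolateral and junctional surface of epithelial cells. Prss8 encodes prostasin, a serine protease held by a lipid anchor, and each of these enzymes can take part in activating the other. Tmprss13 and Tmprss2 are further type II transmembrane serine proteases. Spint1 (HAI-1) and Spint2 (HAI-2) are membrane proteins with Kunitz domains that bind and inhibit matriptase and related enzymes, and in mice their balance with matriptase is known to matter for the placenta, for epithelial integrity and for neural tube closure. ZEB2, a zinc finger repressor of epithelial genes, is known to bind E-boxes of the form CACCTG.

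Promoter sequences were available for Spint1, Spint2 and Tmprss2 in the RefSeq table of GRCm38.p6, which gives 250 bases before and 50 bases after a start site. They are shown because the E-box letters differ between the members that were higher with dTAG-13. CACCTG and its shorter form CACCT were searched on both strands, and each CACCTG also holds a CACCT. The stretch upstream of Spint1 (chr2:119237110-119237359, plus strand) held neither form, and nor did the 50 bases after its start.

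Spint1 upstream: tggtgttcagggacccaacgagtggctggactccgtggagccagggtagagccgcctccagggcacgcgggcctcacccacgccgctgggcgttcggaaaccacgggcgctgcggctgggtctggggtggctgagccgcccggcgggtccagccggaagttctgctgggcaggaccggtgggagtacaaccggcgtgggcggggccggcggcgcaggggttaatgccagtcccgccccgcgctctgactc

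The Spint2 window held 3 copies of CACCTG, all on the opposite strand and so read as CAGGTG, and 1 further CACCT. Each is printed with its surrounding bases on the minus strand of chromosome 7, and capitals mark the matched letters. Counted from the listed start site as 0, the matches begin at -74, -55, -9 and 20. RefSeq places the outermost end of Spint2 at 29282059, so all 4 lie inside the annotated span of the gene.

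Spint2 chr7:29282034-29282063: cgggggcggtgcCAGGTGcaggccgcagag
Spint2 chr7:29282015-29282044: aggccgcagagcCAGGTGcggggccctccg
Spint2 chr7:29281969-29281998: gccccgccccgcCAGGTGcgccccaccccc
Spint2 chr7:29281940-29281969: cagcctgggtgcCACCTtctcttgtgtccc

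The Tmprss2 window held no CACCTG and 1 CACCT on the opposite strand, beginning at 31 in the transcribed part. Its upstream bases (chr16:97611196-97611445, minus strand) lie inside the span RefSeq gives Tmprss2, whose outermost end is at 97659541.

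Tmprss2 chr16:97611147-97611176: tccttctggccgAGGTGcctgcgtttaggg

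Over the 32851 promoters of the table, 20.2% held at least 1 CACCTG and 51.9% at least 1 CACCT. A total of 120 promoters, 0.365%, held 3 or more copies of CACCTG as Spint2 did. The GC content was 69.7% for Spint1, 69.3% for Spint2 and 62.3% for Tmprss2, against a median of 52.7%. These matches describe letters in the windows and are not binding data.

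All 6 genes were higher with dTAG-13 than without it in each replicate number, by 6.41-fold for Tmprss13, 2.44-fold for Prss8, 2.13-fold for St14, 1.86-fold for Spint1, 1.70-fold for Spint2 and 1.31-fold for Tmprss2 in the ratio of group means. Among all genes tested, 27.7% were higher in both numbers. In 4 of the 6, St14, Prss8, Tmprss13 and Spint2, both dTAG-13 libraries lay above both untreated ones, which was so for 14.4% of genes tested. The members were selected on this contrast, so the counts are given with no test and nothing is read from them. Their median difference was 0.95 on the log2 CPM scale, where CPM is the read count scaled to library depth after TMM normalization, and the median of all genes tested was 0.0033. In replicate number 1 the median of the members was 0.81 and in number 2 it was 1.09. In bulk libraries a change in the number of cells of a type and a change in RNA per cell cannot be told apart.

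**Figure D1:**
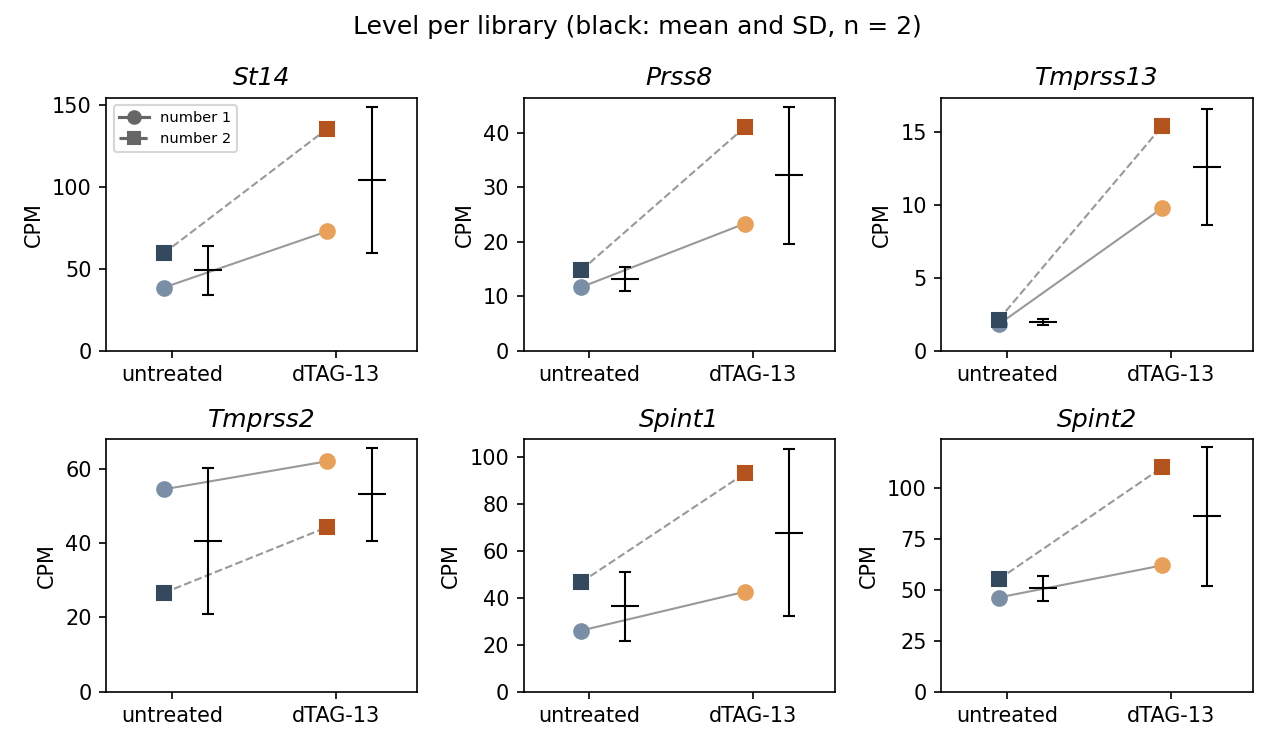
Level of each of the 6 genes in CPM (vertical axis from 0) in the 4 libraries, with circles for replicate number 1, squares for number 2, grey lines joining libraries of the same number, and black marks for the group mean and SD (n = 2). Every line goes up to dTAG-13; Tmprss13 has untreated levels of 1.81 and 2.13 CPM, and Tmprss2 is the gene whose number 1 libraries lie above its number 2 libraries.

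Among the proteases, St14 (chromosome 9, 31088590 to 31131811, on GRCm38.p6 as for the others) was at 38.5 and 59.5 CPM in untreated libraries 1 and 2 and at 73.0 and 135.7 CPM in dTAG-13 libraries 1 and 2. The groups did not overlap, and in each group library 2 was the higher. Its means were 49.0 ± 14.8 and 104.3 ± 44.3 CPM (SD, n = 2 each), with log2 differences of 0.92 in number 1 and 1.19 in number 2. Without dTAG-13 library 2 the difference of means was 0.59, and it was 0.73 without untreated library 1.

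Prss8 (chromosome 7, 127925717 to 127930149) had 11.7 and 14.8 CPM without and 23.4 and 41.1 CPM with dTAG-13. The untreated libraries lay close together and the dTAG-13 libraries far apart, with no overlap. The means were 13.2 ± 2.19 and 32.2 ± 12.5 CPM, and the log2 differences were 0.99 and 1.47. Kat8, a histone acetyltransferase gene on the opposite strand, shares 122 exonic bases with Prss8 in GENCODE, and whether the counting used strand is not stated in the labels or files. Kat8 had 407 and 334 counts untreated and 247 and 335 with dTAG-13, and the part of its reads in the values of Prss8 was not tested.

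Tmprss13 (chromosome 9, 45318988 to 45347581) had the lowest level per kb of the 6 in every library and the largest difference. It had 24 counts in each untreated library, against 115 and 182 in dTAG-13 libraries 1 and 2. In CPM these were 1.81 and 2.13 untreated (95% exact Poisson intervals 1.16 to 2.69 and 1.37 to 3.17) and 9.80 and 15.4 with dTAG-13 (8.09 to 11.8 and 13.3 to 17.9), where the intervals cover counting error only. The log2 differences were 2.34 in number 1 and 2.76 in number 2, with means of 1.97 ± 0.231 and 12.6 ± 3.99 CPM. By mean log2 difference it ranked 2 among the 13602 genes tested, and 7 with a prior count of 0.5 in place of 2. An antisense gene overlaps its exons in GENCODE by 56 bases and was not analysed here.

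Tmprss2 (chromosome 16, 97564682 to 97659541) had 54.4 and 26.6 CPM without and 62.0 and 44.3 CPM with dTAG-13. The groups overlapped, since untreated library 1 lay above dTAG-13 library 2. The means were 40.5 ± 19.7 and 53.1 ± 12.5 CPM, and the log2 differences were 0.19 in number 1 and 0.73 in number 2. The sign of the difference of means rested on single libraries, at -0.05 without untreated library 2 and 0.96 without untreated library 1.

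Of the inhibitors, Spint1 (chromosome 2, 119237360 to 119249535) had 26.1 and 46.7 CPM without and 42.6 and 93.0 CPM with dTAG-13. The groups overlapped, with untreated library 2 above dTAG-13 library 1. Its means were 36.4 ± 14.5 and 67.8 ± 35.6 CPM and its log2 differences 0.70 and 0.99. The difference of means was 0.27 without dTAG-13 library 2, 0.42 without untreated library 1 and 1.41 without dTAG-13 library 1.

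Spint2 (chromosome 7, 29256330 to 29282059) had 46.2 and 55.1 CPM without and 62.0 and 110.0 CPM with dTAG-13. The groups did not overlap, and dTAG-13 library 2 stood well above the other 3. The means were 50.7 ± 6.30 and 86.0 ± 33.9 CPM, with log2 differences of 0.42 and 0.99. The difference of means was 0.28 without dTAG-13 library 2 and 1.12 without dTAG-13 library 1.

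**Figure D2:**
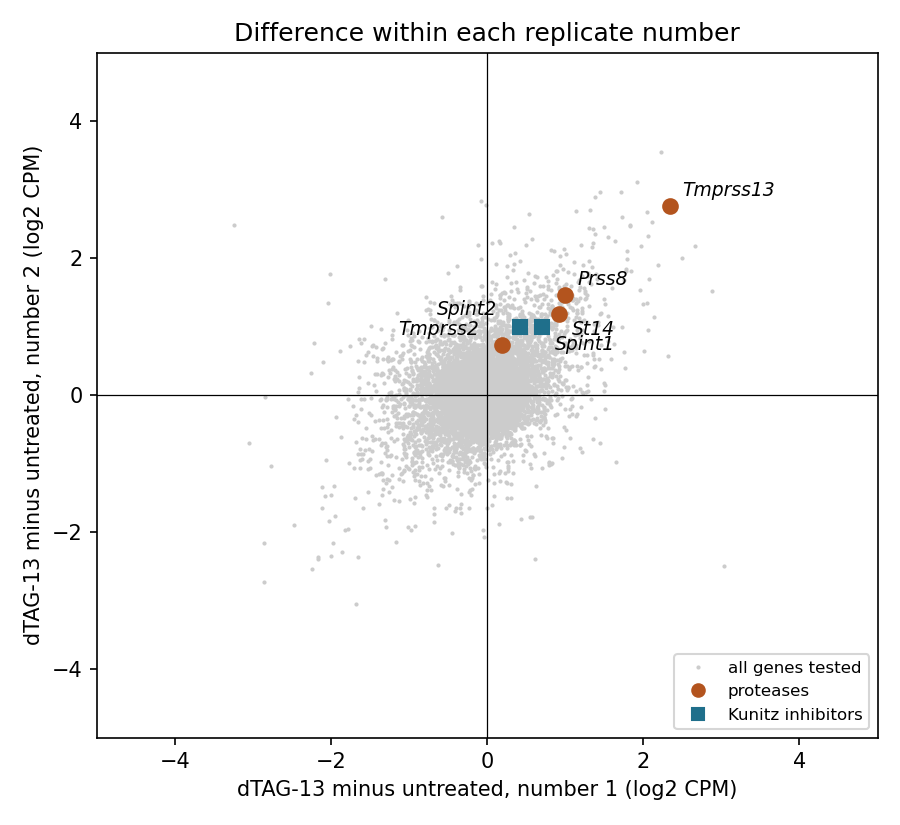
Difference between dTAG-13 and untreated on the log2 CPM scale in replicate number 1 (horizontal axis) and in number 2 (vertical axis), with grey points for all 13602 genes tested, brown circles for the 4 proteases and blue squares for the 2 Kunitz inhibitors. All 6 lie above 0 on both axes; Tmprss13 stands far out at 2.34 and 2.76, and Tmprss2 is nearest to the vertical axis at 0.19 and 0.73.

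Levels of different genes were compared per kb of the longest coding transcript in GENCODE. In untreated gastruloids Spint2 was the most abundant, at 36.6 ± 4.55 CPM per kb (SD, n = 2). Spint1 (15.7 ± 6.26), St14 (15.04 ± 4.54) and Tmprss2 (12.8 ± 6.23) followed and did not differ from each other beyond their spread, and the order of Spint1 and St14 turned when all coding exons were used as the length. Prss8 was at 7.13 ± 1.18 and Tmprss13 at 0.607 ± 0.0713 CPM per kb. With dTAG-13 the values were 62.1 ± 24.5 for Spint2, 32.0 ± 13.6 for St14, 29.2 ± 15.3 for Spint1, 17.4 ± 6.76 for Prss8, 16.8 ± 3.95 for Tmprss2 and 3.89 ± 1.23 for Tmprss13. St14 and Spint1 again lay within each other's spread, as did Prss8 and Tmprss2.

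Ratios of counts within a library do not depend on the scaling between libraries. St14 over Spint1 was 1.48 and 1.27 in untreated libraries 1 and 2 and 1.71 and 1.46 with dTAG-13, so it was higher with dTAG-13 in both numbers, by log2 values of 0.21 and 0.20. The highest of these 4 ratios was 1.343 times the lowest, while St14 itself spanned 3.52-fold and Spint1 3.56-fold over the same libraries. The exact 95% intervals were 1.29 to 1.70 and 1.13 to 1.43 untreated and 1.53 to 1.92 and 1.35 to 1.58 with dTAG-13, so that untreated and dTAG-13 intervals overlapped within each number, while those of untreated library 2 and dTAG-13 library 1 did not. Prss8 over Spint1 was 0.447 and 0.316 untreated and 0.548 and 0.442 with dTAG-13, higher by log2 values of 0.29 and 0.48. Its counting intervals overlapped between the groups in number 1 and not in number 2. St14 over Prss8, the ratio of the membrane proteases that can activate each other, ranged from 3.12 to 4.03.

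Against Spint2, St14 went from 0.834 and 1.08 untreated to 1.18 and 1.23 with dTAG-13, and Prss8 from 0.252 and 0.268 to 0.377 and 0.373. Both proteases were thus higher relative to Spint2 in both numbers. The counting intervals for St14 overlapped in number 2 (0.966 to 1.21 untreated, 1.15 to 1.33 with dTAG-13), and those for Prss8 overlapped in neither number. Tmprss13 over Spint2 was 0.0391 and 0.0387 untreated and 0.158 and 0.140 with dTAG-13, a shift that separated the groups beyond the counting intervals. Tmprss2 went the other way, at 1.18 and 0.482 untreated and 1.00 and 0.403 with dTAG-13, so within each number it was lower relative to Spint2. Its counting intervals against Spint2 overlapped between the groups in both numbers. Against Spint1, Tmprss2 was at 2.08 and 0.570 untreated and 1.45 and 0.476 with dTAG-13. There the intervals did not overlap in number 1 (1.83 to 2.37 untreated, 1.30 to 1.63 with dTAG-13) and overlapped in number 2. These ratios use the contrast by which the genes were chosen and carry no test.

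**Figure D3:**
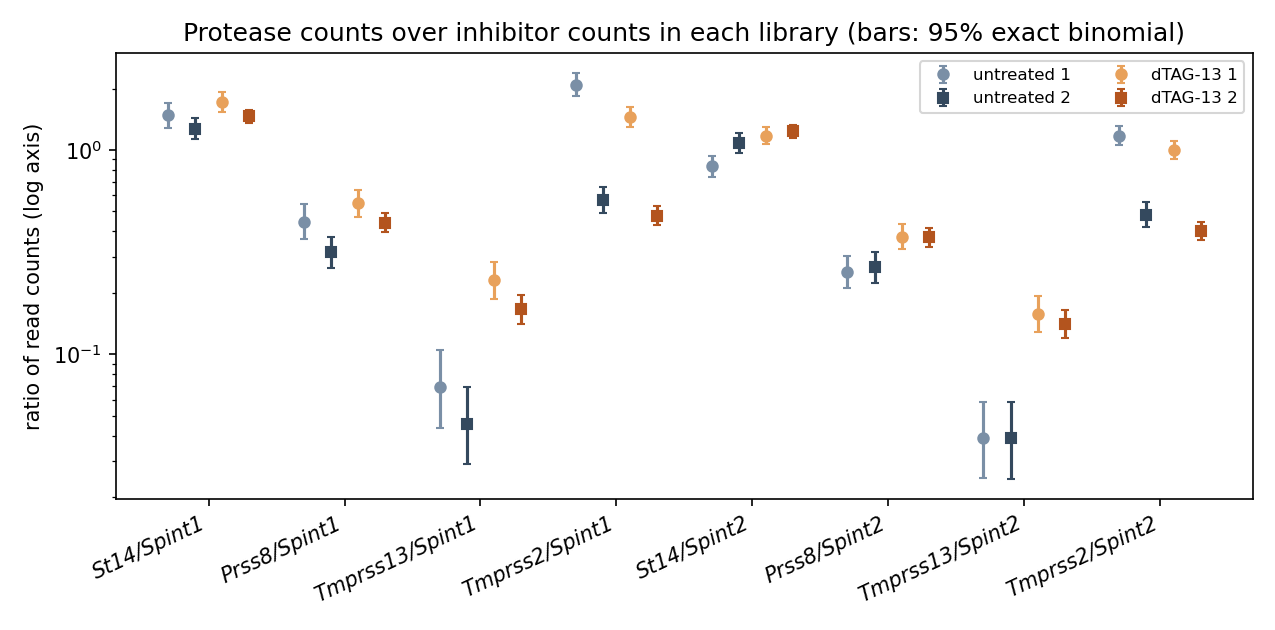
Ratio of the read count of each protease to that of Spint1 or Spint2 (log axis) in the 4 libraries, with 95% exact binomial intervals for counting error. The St14/Spint1 ratios lie between 1.27 and 1.71 in all libraries, the Tmprss13 ratios are higher in both dTAG-13 libraries, and the Tmprss2 ratios separate by replicate number.

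The summed level of the 4 proteases was 106.4 and 102.9 CPM in the untreated libraries and 168.1 and 236.5 CPM with dTAG-13. That of both inhibitors was 72.3 and 101.8 CPM without and 104.6 and 202.9 CPM with dTAG-13. The untreated libraries had almost the same protease sum with different makeup, since Tmprss2 gave 54.4 CPM of it in library 1 and 26.6 CPM in library 2.

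The difference between the replicate numbers was not used to choose the genes and could be tested, with edgeR's quasi-likelihood test of the number beside the group over all genes. Number 2 was above number 1 for St14, Prss8, Spint1 and Spint2 and below it for Tmprss2. Over all genes, 5.20% were called higher in number 2 and 7.51% lower, and of the 6 members 4 were called higher and 1 lower. Spint1 was higher by a log2 value of 0.99 ± 0.14 (SE, adjusted p = 1.48e-10) and St14 by 0.77 ± 0.13 (adjusted p = 4.96e-07), and both were higher in number 2 in both groups. Tmprss2 was lower in number 2 by a log2 value of -0.75 ± 0.14 (adjusted p = 5.10e-06), at 0.488 times number 1 in the untreated libraries and 0.715 times with dTAG-13. Spint2 was higher by 0.55 ± 0.13 (adjusted p = 6.84e-04) and Prss8 by 0.60 ± 0.18 (adjusted p = 0.00927). Both of these calls were lost in DESeq2, with adjusted p of 0.129 and 0.303, and with library totals as the only scaling (0.0586 and 0.166). Tmprss13 had 0.52 ± 0.30 and did not pass (adjusted p = 0.288). The labels do not say what the number stands for, and the fit leaves 1 residual degree of freedom. The difference between numbers was more positive among dTAG-13 than among untreated libraries by log2 values from 0.27 for St14 to 0.57 for Spint2. This value equals the dTAG-13 difference in number 2 minus that in number 1. It thus holds the contrast by which the genes were chosen, and it was not counted over all genes. With 1 library for each group and number it cannot be tested.

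**Figure D4:**
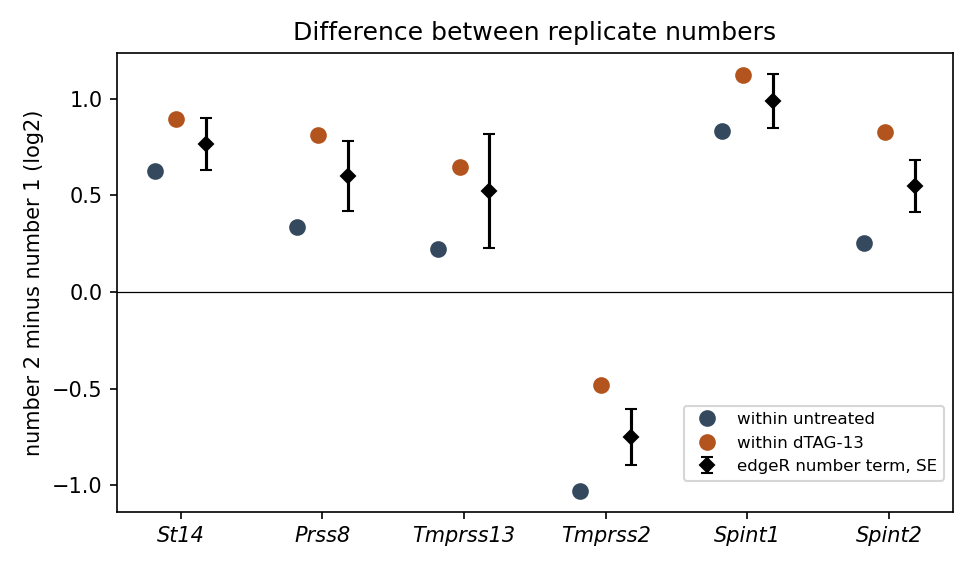
Difference between replicate numbers 2 and 1 on the log2 scale for each of the 6 genes, within the untreated libraries (blue), within the dTAG-13 libraries (brown) and as the number term of edgeR with its SE (black). Tmprss2 is the gene below 0, at -1.03 and -0.48 within the groups, and the other 5 are above 0 in both groups.

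Markers of epithelial cells moved with these genes. Against 27.7% of all genes tested, all 8 epithelial markers (Cdh1, Epcam, Krt8, Krt18, Cldn6, Cldn7, Esrp1 and Rab25) were higher with dTAG-13 in both numbers. Their summed level was 555.0 and 784.7 CPM without and 1001 and 1889 CPM with dTAG-13, which is 1.80-fold in number 1 and 2.41-fold in number 2. The corresponding values were 1.89-fold and 2.28-fold for St14, 1.63-fold and 1.99-fold for Spint1, 5.43-fold and 7.24-fold for Tmprss13 and 1.14-fold and 1.67-fold for Tmprss2. Of 8 surface ectoderm markers 7 were higher in both numbers, with sums of 72.9 and 187.2 CPM without and 126.6 and 394.6 CPM with dTAG-13. All 7 trophoblast markers were higher (87.1 and 93.5 CPM, then 160.1 and 195.2 CPM), and Tfap2c stands in both of these lists. Plac1 was low and differed little in number 1, at 0.527 CPM without and 0.597 CPM with dTAG-13. The 8 gut endoderm markers differed little, at 437.8 and 440.8 CPM without and 461.9 and 466.5 CPM with dTAG-13. Extraembryonic endoderm markers were low, from 7.38 to 35.6 CPM in sum over 7 genes, with Afp and Apoa4 at 0 in every library, and their sums were higher in number 1 in both groups as Tmprss2 was. The somite and presomitic markers that define the tissue were all detected, at 400.6 and 296.6 CPM without and 238.6 and 151.4 CPM with dTAG-13, with 9 of 10 lower in both numbers. All 6 neural tube markers were lower (184.2 and 344.0 CPM, then 134.1 and 186.0 CPM) and all 6 markers of pluripotent cells higher (251.5 and 319.4 CPM, then 298.3 and 463.8 CPM). The share of all genes lower in both numbers was not counted. The 5 endothelial markers summed to 160.9 and 43.3 CPM without and 136.5 and 48.9 CPM with dTAG-13. Sums of the endothelial, extraembryonic endoderm and somite lists, like Tmprss2, were higher in number 1 in both groups. Sums of all the other lists, like 5 members, were higher in number 2 in both groups, by little for gut endoderm. For trophoblast this rested on Tfap2c, at 32.2 and 76.7 CPM without and 55.8 and 156.5 CPM with dTAG-13. Gata3 (16.9 and 1.96 CPM, then 34.9 and 5.77 CPM), Eomes and Hand1 were higher in number 1 in both groups. Elf5 was higher in number 2 in both, and Krt7 and Plac1 differed in direction between the groups. The part of these cell types in the values of the 6 genes was not tested.

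**Figure D5:**
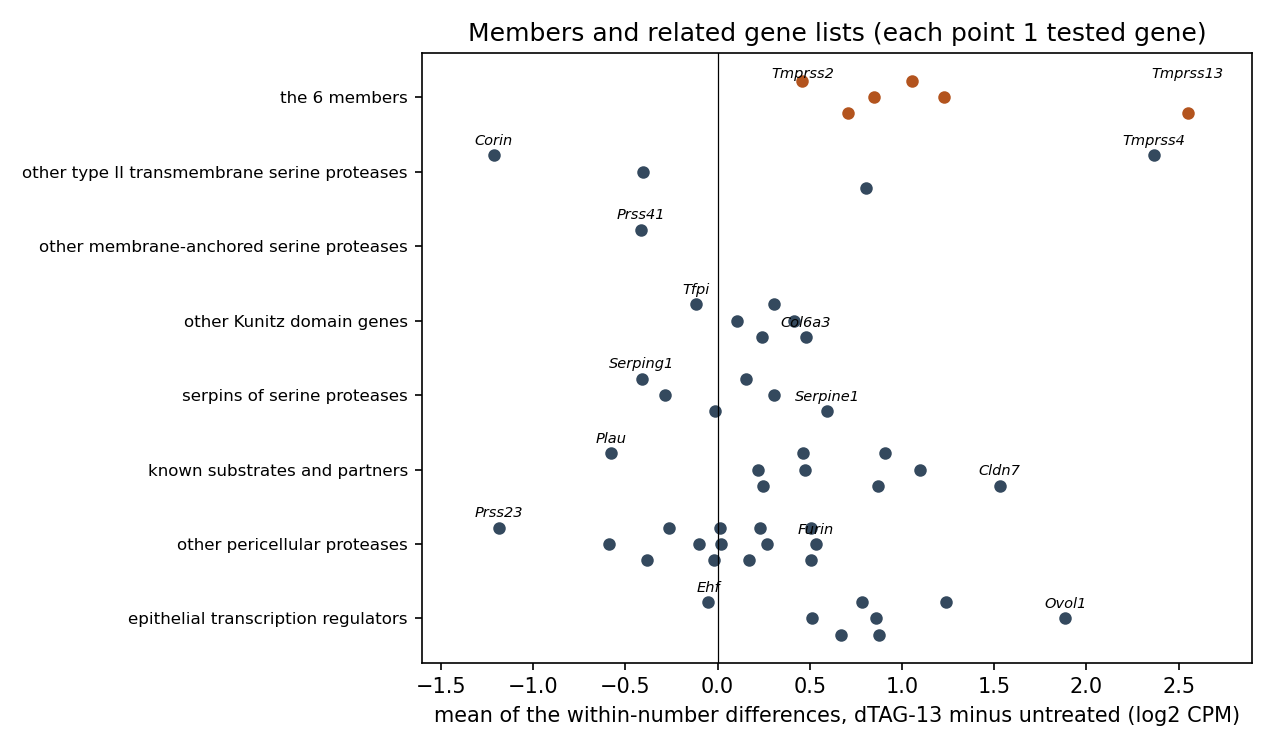
Mean of the within-number differences between dTAG-13 and untreated on the log2 CPM scale (horizontal axis) for the 6 members (brown) and for the tested genes shown of 7 related lists (blue, 1 point a gene, spread vertically for legibility). Tmprss4 lies beyond 2, near Tmprss13, while every tested gene of the other Kunitz domain and serpin lists lies below 1.

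Close relatives of the members were next examined, in lists drawn up from knowledge of these gene families with earlier results of the data known. With edgeR fitted on the group alone, 0% of the 13602 genes passed an adjusted p of 0.05 in either direction, so none of the listed genes did, and 312 genes had an unadjusted p under 0.05 with a higher value (2.29%) and 167 with a lower one (1.23%). DESeq2 called 24 genes higher (0.176%) and 12 lower (0.0882%). When edgeR fitted the number beside the group, 395 genes were called higher and 241 lower. Higher calls took in 5 of the 10 tested substrates and partners and 5 of the 8 epithelial regulators. Of the other type II transmembrane and other pericellular proteases, 1 and 1 were called higher and 1 and 2 lower. The remaining lists had no call. The labels do not say what the number marks, and this fit leaves 1 residual degree of freedom. Among 17 other type II transmembrane serine proteases, 16 were listed in the tables and 4 had enough counts to be tested; the other 12 had at most 11 counts summed over all libraries, and 5 of them, all of the Tmprss11 group, had 0. The 4 tested had a median log2 difference of 0.20, with 2 higher and 2 lower in both numbers. Tmprss4, known from epithelia and carcinomas, had 0.452 and 0.533 CPM without and 2.39 and 4.33 CPM with dTAG-13 (log2 fold change 2.75 ± 0.56, SE; edgeR adjusted p = 0.774; DESeq2 adjusted p = 0.311). Hpn, which encodes hepsin, had 4.44 and 2.58 CPM without and 5.20 and 7.04 CPM with dTAG-13. Corin, the protease that processes the precursor of atrial natriuretic peptide, had 9.48 and 1.60 CPM without and 3.24 and 0.764 CPM with dTAG-13, with the larger gap between numbers, and Tmprss5 stayed under 1 CPM in every library.

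Of 5 other membrane-anchored serine proteases only Prss41 was tested, at 2.26 and 0.533 CPM without and 1.45 and 0.424 CPM with dTAG-13. Of 13 other Kunitz domain genes 6 were tested, with a median log2 difference of 0.27 and 4 higher in both numbers. App and Aplp2, which encode the amyloid precursor protein and its paralog with an extracellular Kunitz domain, had log2 fold changes of 0.30 ± 0.17 and 0.25 ± 0.15. Spint3 and Spint4 had 0 counts in every library, so within the Spint family the reads came almost wholly from Spint1 and Spint2. Of 14 serpins, inhibitors of another fold, 6 were tested, with a median of 0.07 and 3 higher in both numbers. Serpinb6a was the one with the smallest p (log2 fold change 0.30 ± 0.20), and Serpinb5, an epithelial serpin, had 3 counts in all.

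Known substrates and partners of these enzymes had a median log2 difference of 0.67. Of the 10 tested, 8 were higher in both numbers, against 27.7% of all genes tested, and 0 lower in both. With DESeq2 1 of these 10 passed over all genes, Cldn7 (adjusted p = 0.00564), a claudin that forms a complex with EpCAM. Epcam and Cldn7 also stand among the epithelial markers above. Epcam, whose product matriptase can cleave, had 94.2 and 129.6 CPM without and 161.1 and 267.8 CPM with dTAG-13 (edgeR log2 fold change 0.94 ± 0.30, adjusted p = 1.00). Cdcp1, a membrane protein cleaved by serine proteases, went from 5.49 ± 0.970 to 11.9 ± 2.07 CPM (SD, n = 2 each). F2rl1, which encodes the protease-activated receptor PAR2, had 16.9 and 53.9 CPM without and 33.5 and 91.3 CPM with dTAG-13. Its level was higher in number 2 in both groups, with a number term of 1.55 ± 0.15 (SE, edgeR adjusted p = 4.58e-24), in the same direction as St14 and Spint1. F2rl1 was named after its values were seen.

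Other pericellular proteases had a median log2 difference of 0.02 over 14 tested genes, with 5 higher and 5 lower in both numbers. Furin, a proprotein convertase of the secretory pathway, had 44.8 and 51.3 CPM without and 62.9 and 76.8 CPM with dTAG-13 (log2 fold change 0.54 ± 0.16), and Prss23, a secreted serine protease, had 11.97 and 5.60 CPM without and 3.92 and 3.14 CPM with dTAG-13 (-1.32 ± 0.45). Both had an adjusted p of 1.00 in edgeR. Of 8 epithelial transcription regulators 6 were higher in both numbers, against 27.7% of all genes tested, and 0 lower in both, with a median of 0.82. A gene of this list also stands among the surface ectoderm markers. Grhl2, a grainyhead factor of epithelia, had 23.9 and 31.0 CPM without and 45.3 and 91.5 CPM with dTAG-13, and Ovol1, a zinc finger repressor, had 1.81 and 4.18 CPM without and 8.10 and 14.0 CPM with dTAG-13.

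The likeness of genes was measured as the root mean square distance between log2 CPM profiles over the 4 libraries, each centred on its own mean, among genes averaging at least 1 on the log2 CPM scale. These profiles hold the contrast by which the members were chosen, so the distances are a description with no test. St14, Prss8, Spint1 and Spint2 lay within 0.14 (St14 and Prss8) to 0.28 (Prss8 and Spint1) of each other. Their median distances to all genes compared were 0.67, 0.70, 0.67 and 0.49 in that order. Tmprss2 lay 0.66 or more from each of the others, as did Tmprss13, and this pair was the farthest apart, at 1.20. Nearest to the mean profile of the 6 were Marveld2 (0.023), Gramd1c (0.034), Erbb3 (0.054), Ildr1 (0.078), Naip6 (0.084), Marveld3 (0.092) and Apcdd1 (0.093), among 12431 genes. Lypd6b and Ahr were nearest to St14, Tmem30b and Grhl2 to Prss8, Parvb and Emb to Tmprss2, and Ttyh2 and Alox15 to Spint2. Cdh1, which encodes E-cadherin, was the nearest to Spint1 at 0.039, with 173.4 and 310.1 CPM without and 301.5 and 618.9 CPM with dTAG-13, and Cblc came next at 0.048. Tmprss4 was the nearest to Tmprss13 at 0.11, followed by Nectin4 at 0.21. Tmprss4 had 6 counts in each untreated library and 28 and 51 with dTAG-13. It met the count filter only through the dTAG-13 libraries, so its likeness to Tmprss13 depends in part on that filter.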

How the data were processed

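RNA sequencing libraries of 2 untreated and 2 dTAG-13 gastruloid samples were analysed, grouped by title. The authors deposited 1 table per library of raw read counts by gene symbol; fastp 0.20.1, STAR 2.7.6a, HTSeq 0.12.4, DESeq2 1.34.0 and GRCm38.p6 appear in the submitters' processing notes with no role given. The 5 summary lines were left out: reads outside genes were 24.1% to 35.7% of a library and ambiguous ones 0.209% to 0.240%. Counts in genes were 11491330 to 12716172 per library. Counting annotation and strand setting: not given in the sources used here.

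edgeR 4.0.16 in R 4.3.3 was used with filterByExpr (minimum count 10, minimum total 15), TMM factors, robust glmQLFit and two-sided glmQLFTest, p-values adjusted by Benjamini-Hochberg over all genes kept, and 0.05 as the threshold. The group was the only term for dTAG-13 except where the number is said to be added. Group plus number were the terms for the number. SE is the absolute log2 fold change over the square root of F. Log2 CPM adds a prior count of 2. DESeq2 1.42.0 was an alternative, with other scalings, filters and left-out libraries. The test was checked on simulated counts. Replicates of a group differed beyond sampling noise (chi-square per degree of freedom 38.7 and 32.9), so none is a copy.

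The members and lists were chosen with earlier results of these data known. All members were named, and in each list up to 4 genes of smallest p averaging at least 0 on the log2 CPM scale; other names are given as such or as counts. Some genes are not reported here by name or drawn, but stay in the fits and in the counts and medians of lists.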

Additional observations from a re-analysis of the deposited data

How the results depend on the processing

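All 6 members were higher in both numbers, and 4 had groups that did not overlap, under each of the 6 changes of scaling, filter and gene set tried. Leaving out 1 library gave log2 differences of 0.59 to 1.50 for St14, 0.80 to 1.63 for Prss8, 2.21 to 2.87 for Tmprss13, -0.05 to 0.96 for Tmprss2, 0.27 to 1.41 for Spint1 and 0.28 to 1.12 for Spint2, and 0.63 to 1.45 for their median. The alternatives for groups that do not overlap, for the number term of each member, for gene length and for ranks by prior count were chosen after seeing the data. The value of Tmprss2 changed sign, to -0.054, without untreated replicate 2. The count of 0 genes called for dTAG-13 stayed at 0 without any 1 library, and was 36 with DESeq2. A replicate block in edgeR gave 636 calls, 395 higher and 241 lower; the deviations of same-numbered libraries from their group means correlated at 0.63 over 13602 genes, but no label says that a number marks a shared culture, and 2 numbers are too few to show it. Genes called between the numbers, 1729 in edgeR, were 1052 with library totals as the only scaling and 652 with DESeq2. The cause of these shifts was not tested. No fit of the number was possible with a library left out, since it leaves no residual degree of freedom. With 24 counts in each untreated library, Tmprss13 is the member whose level is limited most by depth.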

Other observations

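The places of the 6 genes in the genome were examined after their values were seen. Within 100 kb of the members RefSeq lists 32 other genes that were tested, of which 12 (37.5%) were higher with dTAG-13 in both numbers, against 27.7% of all genes, and their median log2 difference was 0.03. The 10 tested neighbours of Prss8 had a median of 0.0037, the 9 of Spint2 0.12 and the 7 of Spint1 0.033. The 2 each of St14, Tmprss13 and Tmprss2 had 0.19, -0.23 and 0.49. The 2 neighbours of Tmprss2 were unlike, with log2 differences of 0.73 and 0.72 for Ripk4 and -0.14 and 0.65 for Mx2 in numbers 1 and 2. Mx2 was low, at 0.533 to 1.05 CPM. Rhov, beside Spint1, was low, at 0.828 and 0.978 CPM without and 1.45 and 2.71 CPM with dTAG-13. Its edgeR log2 difference of 1.20 ± 0.54 (SE) did not pass after adjustment. Ripk4, which encodes a kinase known from the epidermis and lies next to Tmprss2 on chromosome 16 (97741933 to 97763779), had 23.3 and 24.5 CPM without and 38.8 and 40.6 CPM with dTAG-13, an edgeR log2 difference of 0.73 ± 0.15 (SE, adjusted p = 0.774). Its groups did not overlap, unlike those of Tmprss2.

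Tmprss4, the gene with the profile nearest to that of Tmprss13, lies 114.9 kb from it on chromosome 9 (45172726 to 45204119). Of the genes RefSeq places between their outer ends, none had enough counts to be tested; Il10ra had 2 counts over all libraries and BC049352 had 0. On the other side of Tmprss13, Fxyd6 had 57.8 and 52.7 CPM without and 44.7 and 48.8 CPM with dTAG-13, and Dscaml1 had 3.46 and 5.60 CPM without and 3.92 and 3.56 CPM with dTAG-13.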
